A study of Mus musculus with 12 samples.

Results

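The transcription factors described here direct the formation of red cells and of megakaryocytes, the platelet-forming cells: Gata1, Gata2, Klf1, Tal1, Nfe2, Zfpm1, Gfi1b, Fli1, Lmo2 and Ldb1. Every probe whose annotated gene symbol is one of these 10 names was taken. That gave 11 of the 25697 probes on the array, or 10 of its 16593 named genes, with a pair of probes for Gata1 and a single probe for each of the others. All 11 probes were above their array's background on all 12 arrays and so passed the filter on dim probes, which kept 16255 probes.

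The cells were mouse bone marrow progenitors (strain C57Bl/6J) that had been depleted of mature lineages and grown with IL-3, SCF and FLT3 ligand, and the RNA was hybridized to Illumina Mouse Ref-8 BeadChips. RE+GM cells carried the MigR1 retrovirus with HA-tagged RUNX1-ETO and spent their last 24 h with 10 ng/mL GM-CSF. RE cells carried the same construct without GM-CSF, and both had expressed RUNX1-ETO for 48 h in all. Mig+GM cells carried the empty MigR1 vector and had the same GM-CSF treatment, and Mig cells carried the empty vector without GM-CSF. All 4 groups were sorted for the vector's green fluorescence, for c-Kit and for the absence of lineage markers, and held 3 arrays each. The sample titles name the fusion AE where the descriptions name it RE. RUNX1-ETO arises from a chromosomal translocation found in myeloid leukaemia, and GM-CSF is a cytokine that promotes granulocyte and macrophage growth. The viral promoter expresses the fusion outside the control of the Runx1 gene. Whether the 3 replicates are separate animals or cultures is not stated, so every p-value here rests on the spread among these samples alone, and that spread may be technical.

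GATA2 acts in stem and early progenitor cells, and GATA1 takes its place at many sites as red cells form, while mast cells use both. GATA factors share DNA with TAL1, and the bridging proteins LMO2 and LDB1 hold the complex together. FOG1, the product of Zfpm1, binds GATA1 directly, and KLF1 and FLI1 oppose each other in the choice between red cell and megakaryocyte. RUNX1, which gives the fusion its DNA-binding part, acts beside GATA1 and FLI1 in normal megakaryocytes.

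The stretches of DNA just before the start of these genes are shown where they hold letters of the GATA motif, because Klf1, Gfi1b, Tal1 and Ldb1 are genes whose signal differed between RE and Mig cells and because GATA factors are among the members. The sequences are RefSeq promoter windows of the GRCm38.p6 mouse genome, the 250 bases before a transcription start, written 5′ to 3′ on the gene's own strand. Capitals mark the GATA letters searched (AGATAA with AGATAG, and TGATAA with TGATAG, on either strand) and the RUNX letters searched (TGTGGT or TGCGGT, on either strand). The Klf1 window lies at chr8:84901732-84901981 on the plus strand, and Gfi1b at chr2:28621983-28622232 on the minus strand. The windows of the first listed start of Tal1 and of Ldb1 lie at chr4:115056176-115056425 on the plus strand and at chr19:46037071-46037320 on the minus strand. Starts are listed by rising coordinate, so the Ldb1 window shown belongs to the most downstream of its listed starts. Tal1 window 2 and Ldb1 windows 2 and 3, which are not shown, held no GATA letters.
Klf1: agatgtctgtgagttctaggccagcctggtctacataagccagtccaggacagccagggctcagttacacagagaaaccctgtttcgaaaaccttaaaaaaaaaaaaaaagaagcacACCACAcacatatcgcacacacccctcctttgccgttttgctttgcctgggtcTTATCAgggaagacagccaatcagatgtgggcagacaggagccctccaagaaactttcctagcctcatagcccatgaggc
Gfi1b: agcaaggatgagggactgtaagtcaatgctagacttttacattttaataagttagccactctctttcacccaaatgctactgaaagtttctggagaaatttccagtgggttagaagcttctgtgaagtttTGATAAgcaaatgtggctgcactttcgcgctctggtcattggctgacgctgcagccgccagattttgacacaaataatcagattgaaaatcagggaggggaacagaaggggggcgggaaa
Tal1: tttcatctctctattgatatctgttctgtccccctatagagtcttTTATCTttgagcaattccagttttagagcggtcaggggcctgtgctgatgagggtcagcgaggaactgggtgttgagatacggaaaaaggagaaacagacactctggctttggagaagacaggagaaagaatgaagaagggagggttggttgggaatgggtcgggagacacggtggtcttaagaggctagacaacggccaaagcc
Ldb1: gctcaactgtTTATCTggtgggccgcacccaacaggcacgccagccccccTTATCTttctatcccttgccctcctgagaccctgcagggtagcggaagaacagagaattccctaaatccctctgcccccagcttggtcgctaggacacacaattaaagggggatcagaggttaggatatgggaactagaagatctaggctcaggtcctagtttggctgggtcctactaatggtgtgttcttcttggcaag

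The promoter table listed 7 of the 10 genes, with 11 windows among them; Nfe2, Fli1 and Lmo2 were not matched. GATA letters stood in 4 of the 7 genes, in 4 of their 11 windows (36.4%), and in 26.5% of all 32851 windows. In Klf1 they began 80 bases before the start, in Gfi1b 120, in Tal1 205, and in Ldb1 240 and 200. RUNX letters stood in 1 of the 7 genes, Klf1, 133 bases before its start, in 1 of the 11 windows (9.09%), and in 18.6% of all windows. KLF letters (CCACCC or CACACCC) stood in 4 of the 7 genes, in 5 of the 11 windows (45.5%), and in 32.7% of all windows. Letters of ETS factors, of the E-box (a motif of TAL1 and its relatives) and of NF-E2 were searched too. Each stood in a smaller share of the members' windows than of all windows. ETS letters stood in 18.2% of the 11 windows and in 38.2% of all windows, and E-box letters in 9.09% and 25.5%. For NF-E2 letters these shares were 0% and 4.46%. These matches describe letters in a window and do not show binding.

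RE and RE+GM arrays were separated from Mig and Mig+GM arrays along a first principal component with 72% of the variance. Correlations between replicates across probes ran from 0.964 to 0.993. Of the probes for Runx1t1, the mouse gene that encodes ETO, the one that responded was higher by 1.85 on the log2 scale in RE than in Mig cells (limma adjusted p = 1.96e-06), and a second differed by -0.11 (adjusted p = 0.461). Deposited signal was dim on RE replicates 1 and 2, with means of 317.9 and 338.1, while RE replicate 3 had 429.5 and the Mig arrays 431.1 to 596.9. RE replicate 1 stood apart on the second component (11% of the variance), at 43.2 where the others lay between -19 and 16.1. Mig+GM replicate 1 stood apart from the other arrays on the third component, at -30.6 where the others lay between -10.9 and 15.4, and it had the lowest Mig+GM signal for 9 of the 11 probes. Values below are log2 of the normalized signal, and a difference of 1 is a doubling; a call is an adjusted p under 0.05 over all tested probes.

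With quantile normalization the factors split between RE and Mig cells, and with arrays scaled to one median the calls were 0 higher and 6 lower. Without GM-CSF, 6 of the 11 probes were called between RE and Mig cells, 3 lower (Klf1, Nfe2 and Gfi1b) and 3 higher (Tal1, Fli1 and Ldb1), while both Gata1 probes, Gata2, Zfpm1 and Lmo2 were not called. That is 54.5% of the probes, where 36.0% of all tested probes were called, 16.1% higher and 20.0% lower. Under median scaling 1522 of all tested probes were higher and 4500 lower. The arrays of the 2 groups did not overlap for 7 of the 11, where 44.6% of all tested probes did not overlap. The median difference of the 11 probes was -0.03, beside -0.05 over all tested probes. In sorted cells measured in bulk, fewer cells of a type and less RNA per cell cannot be told apart.

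Klf1, the factor that switches on globin, membrane and heme genes in red cell precursors, differed by the most among the 10 genes. It measured 8.85, 8.18 and 8.12 on RE replicates 1 to 3, against 10.32, 10.75 and 10.35 on the Mig arrays. All RE arrays lay below all Mig arrays, by more than the range within either group. Klf1 was 4.25-fold lower in RE cells (log2 -2.09, SE 0.34, 95% interval -2.83 to -1.34, limma adjusted p = 0.00055), and it ranked number 24 from the lowest among the tested probes. Under GM-CSF the Klf1 signal was 7.14, 7.28 and 7.97 on RE+GM arrays, against 8.80, 10.04 and 10.11 on Mig+GM arrays. The groups did not overlap, and Mig+GM replicate 1 was the low control array. The difference was 4.56-fold (log2 -2.19, SE 0.34, adjusted p = 0.000291), and -2.61 without that array.

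Nfe2, the large subunit of the NF-E2 factor that platelet release and globin genes rely on, showed the same order of groups. Its signal was 10.56, 10.16 and 9.38 in RE cells and 11.74, 11.97 and 11.62 in Mig cells. Under GM-CSF it was 9.71, 9.65 and 9.15 in RE+GM cells and 11.35, 11.82 and 11.66 in Mig+GM cells. RE arrays were low in both settings with no overlap, and Mig+GM replicate 1 stood near its group. Nfe2 was 3.35-fold lower in RE cells (log2 -1.74, SE 0.26, limma adjusted p = 0.00029) and 4.29-fold lower in RE+GM cells (log2 -2.10, SE 0.26, adjusted p = 5.61e-05).

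Gfi1b, a repressor needed for red cell and megakaryocyte formation, was the third factor with lower signal. It measured 9.12, 8.29 and 8.26 on RE arrays and 9.39, 9.85 and 9.71 on Mig arrays. The groups did not overlap, but the gap between the highest RE array and the lowest Mig array was smaller than the range within RE. The signal was 2.13-fold lower (log2 -1.09, SE 0.33, limma adjusted p = 0.0208), and this call was lost when any 1 of 4 arrays was left out: Mig replicate 2 (adjusted p = 0.0717), Mig replicate 3 (0.0582), RE replicate 2 (0.0766) or RE replicate 3 (0.0692). Under GM-CSF the RE+GM arrays were close together at 7.82, 7.88 and 7.99, against 8.36, 9.38 and 9.85 on the Mig+GM arrays. There Gfi1b was 2.46-fold lower (log2 -1.30, SE 0.33, adjusted p = 0.00698), and -1.72 without Mig+GM replicate 1.

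**Figure D1:**
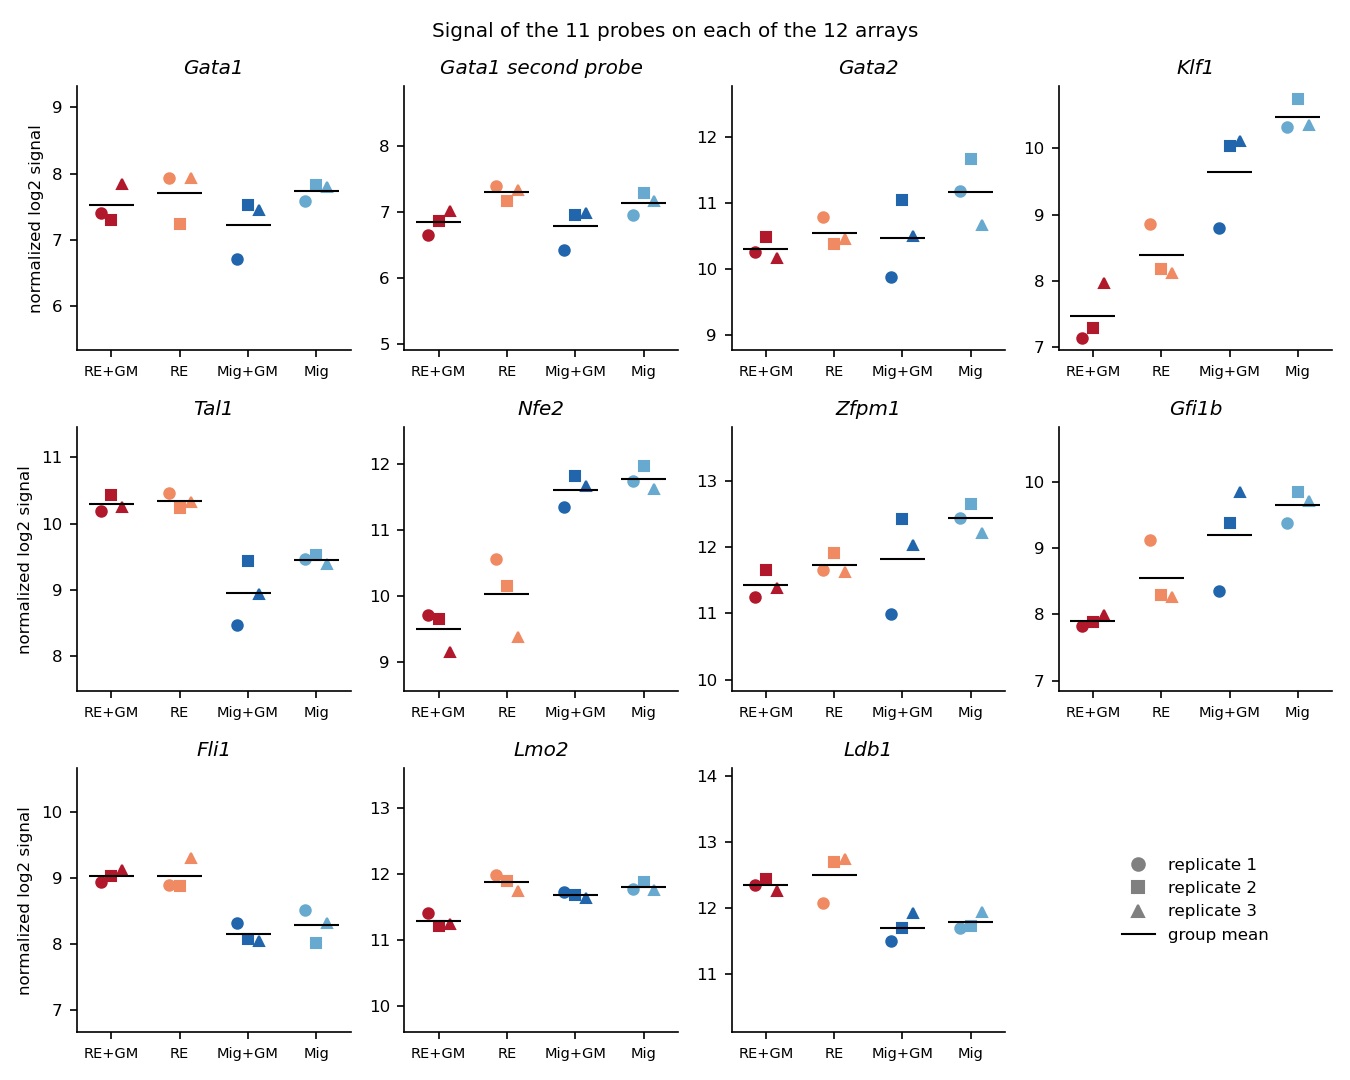
Normalized log2 signal of each of the 11 probes on the 12 arrays, by group (RE+GM, RE, Mig+GM, Mig); symbols mark the replicate number, lines the group mean, and each panel spans 4 log2 units. Klf1, Nfe2 and Gfi1b lie lower and Tal1, Fli1 and Ldb1 higher in the RUNX1-ETO groups than in the matching vector groups, and Mig+GM replicate 1 (circle) is low for Gata1, Gata2, Klf1, Tal1, Zfpm1 and Gfi1b.

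Among members of the complex that sits with GATA factors on DNA, Tal1 and Ldb1 were higher in both settings with quantile normalization, of which median scaling kept the Tal1 call under GM-CSF and removed the others, and Lmo2 was lower under GM-CSF. Tal1, the basic helix-loop-helix protein of that complex, measured 10.46, 10.23 and 10.32 in RE cells and 9.46, 9.52 and 9.38 in Mig cells. The groups were tight and apart. Tal1 was 1.85-fold higher in RE cells (log2 0.89, SE 0.19, limma adjusted p = 0.0033), a call that was lost when arrays were scaled to one median instead (log2 0.45, adjusted p = 0.196). Under GM-CSF it measured 10.19, 10.43 and 10.25 in RE+GM cells, against 8.46, 9.44 and 8.94 in Mig+GM cells. RE+GM cells were 2.54-fold higher (log2 1.35, SE 0.19, adjusted p = 0.000143), a call kept under all alternatives tried.

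Ldb1, the scaffold that joins LMO2 to distant enhancers, measured 12.08, 12.70 and 12.74 in RE cells and 11.70, 11.73 and 11.94 in Mig cells. Under GM-CSF it was 12.35, 12.44 and 12.26 in RE+GM cells and 11.50, 11.70 and 11.92 in Mig+GM cells. RE replicate 1 was the low RE array, yet it was above each Mig array. Ldb1 was 1.65-fold higher in RE cells (log2 0.72, SE 0.17, limma adjusted p = 0.00535) and 1.56-fold higher in RE+GM cells (log2 0.64, SE 0.17, adjusted p = 0.00833). Under median scaling both calls were lost, at log2 0.27 (adjusted p = 0.418) and 0.63 (adjusted p = 0.0543).

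Lmo2, the LIM protein that bridges TAL1 and GATA factors, differed little without GM-CSF. It measured 11.99, 11.90 and 11.74 in RE cells and 11.78, 11.88 and 11.76 in Mig cells. The groups overlapped, and the difference of 0.07 (SE 0.09, limma adjusted p = 0.613) turned to -0.36 under median scaling (adjusted p = 0.0258). Under GM-CSF it measured 11.41, 11.22 and 11.25 in RE+GM cells, against 11.73, 11.69 and 11.64 in Mig+GM cells. All RE+GM arrays were below all Mig+GM arrays, by 1.31-fold in the means (log2 -0.39, SE 0.09, adjusted p = 0.00369). In the authors' normalized table that difference was -0.21 (adjusted p = 0.211).

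Fli1, an ETS factor of megakaryocytes, measured 8.89, 8.87 and 9.30 in RE cells and 8.51, 8.02 and 8.31 in Mig cells. With GM-CSF the values were 8.94, 9.03 and 9.11 in RE+GM cells and 8.32, 8.08 and 8.05 in Mig+GM cells. RUNX1-ETO arrays were the higher ones in both settings, without overlap. Fli1 was 1.67-fold higher in RE cells (log2 0.74, SE 0.15, limma adjusted p = 0.00194), which median scaling left uncalled (log2 0.38, adjusted p = 0.239). It was 1.83-fold higher in RE+GM cells (log2 0.87, SE 0.15, adjusted p = 0.000483), called under all alternatives tried. In the quantile-normalized values of both settings Klf1 was lower and Fli1 higher. Whether either factor acted on the other was not tested.

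The GATA genes themselves were not called in either setting. Gata1 measured 7.94, 7.24 and 7.94 in RE cells and 7.58, 7.82 and 7.80 in Mig cells. Its difference was -0.03, with a 95% interval from -0.56 to 0.50 on the log2 scale (limma adjusted p = 0.949). A change of up to 0.50 in either direction thus lies inside that interval. The second Gata1 probe measured 7.39, 7.17 and 7.33 in RE cells and 6.95, 7.29 and 7.16 in Mig cells, a difference of 0.16 (interval -0.19 to 0.51, limma adjusted p = 0.481). Under GM-CSF the first probe measured 7.41, 7.30 and 7.85 in RE+GM cells and 6.71, 7.52 and 7.45 in Mig+GM cells. The difference of 0.30 (adjusted p = 0.381) came to 0.04 without Mig+GM replicate 1, and the second probe gave 0.05 (adjusted p = 0.832). Both probes were dim, at 1.23 to 4.70 times the background mode.

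Gata2 measured 10.79, 10.38 and 10.46 in RE cells and 11.18, 11.66 and 10.67 in Mig cells. The highest RE array was above the lowest Mig array. The difference was -0.62 (SE 0.28, 95% interval -1.25 to -0.00, limma adjusted p = 0.113). It was called under median scaling (log2 -1.07, adjusted p = 0.0206), with array quality weights (log2 -0.78, adjusted p = 0.0245) and without Mig replicate 3 (log2 -0.87, adjusted p = 0.0398). Under GM-CSF it measured 10.26, 10.49 and 10.17 in RE+GM cells and 9.88, 11.04 and 10.50 in Mig+GM cells, a difference of -0.17 (adjusted p = 0.699).

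Zfpm1, the GATA1 cofactor gene, measured 11.65, 11.91 and 11.63 in RE cells and 12.44, 12.65 and 12.22 in Mig cells. All RE arrays were below all Mig arrays, yet the difference of -0.71 (SE 0.29) was not called (limma adjusted p = 0.0755). Mig+GM replicate 1 enters that p through the shared estimate of spread: without it the same difference had an adjusted p of 0.00483. Zfpm1 was also called lower without Mig+GM replicate 2 (0.036) and under median scaling (log2 -1.16, adjusted p = 0.0179). Blocking the arrays by their number gave a call too (0.023). Under GM-CSF Zfpm1 measured 11.25, 11.66 and 11.39 in RE+GM cells and 10.99, 12.43 and 12.03 in Mig+GM cells. Mig+GM replicate 1 was the lowest of these 6 arrays and the other Mig+GM arrays were the highest. The difference was -0.38 (adjusted p = 0.33), and -0.80 without Mig+GM replicate 1 (adjusted p = 0.00411).

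Under GM-CSF, then, 7 of the 11 probes were called between RE+GM and Mig+GM cells, 3 higher and 4 lower. That is 63.6%, where 40.9% of all tested probes were called, 18.3% higher and 22.6% lower. Arrays did not overlap for 7 of the 11, where 52.0% of all tested probes did not overlap, and the median difference was -0.17, beside -0.05 over all tested probes. The 6 probes called without GM-CSF were called with it in the same direction, with Lmo2 added.

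**Figure D2:**
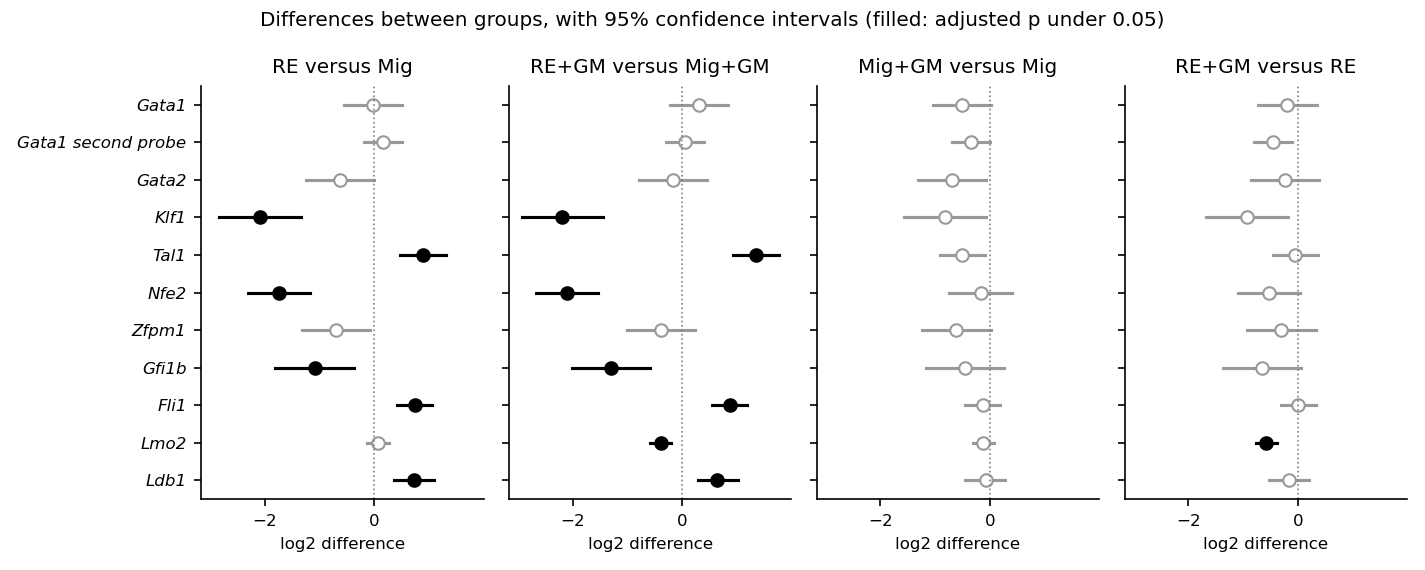
Log2 difference of each probe in the 4 comparisons, with 95% confidence intervals from limma; filled points have an adjusted p under 0.05. In RE versus Mig the called differences run from -2.09 for Klf1 to 0.89 for Tal1, a split that median scaling alters, while in Mig+GM versus Mig all 11 points lie below 0 with none called.

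The scaling of the arrays bore on the higher calls without GM-CSF. Quantile normalization gave 3 higher and 3 lower probes between RE and Mig cells, and the authors' normalized table gave 3 and 3 as well. Scaling to one median gave 0 higher and 6 lower: Klf1, Nfe2 and Gfi1b were kept and Gata2, Zfpm1 and Lmo2 were added. Over all tested probes the share of calls that were higher was 44.6% with quantile normalization, 50.3% in the authors' table and 25.3% under median scaling. Between RE+GM and Mig+GM cells these shares were 44.8%, 50.2% and 48.3%, and the members split 3 higher and 4 lower, 3 and 3, and 2 and 4. Klf1, Nfe2 and Gfi1b were lower by all 3 ways in both settings.

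**Figure D3:**
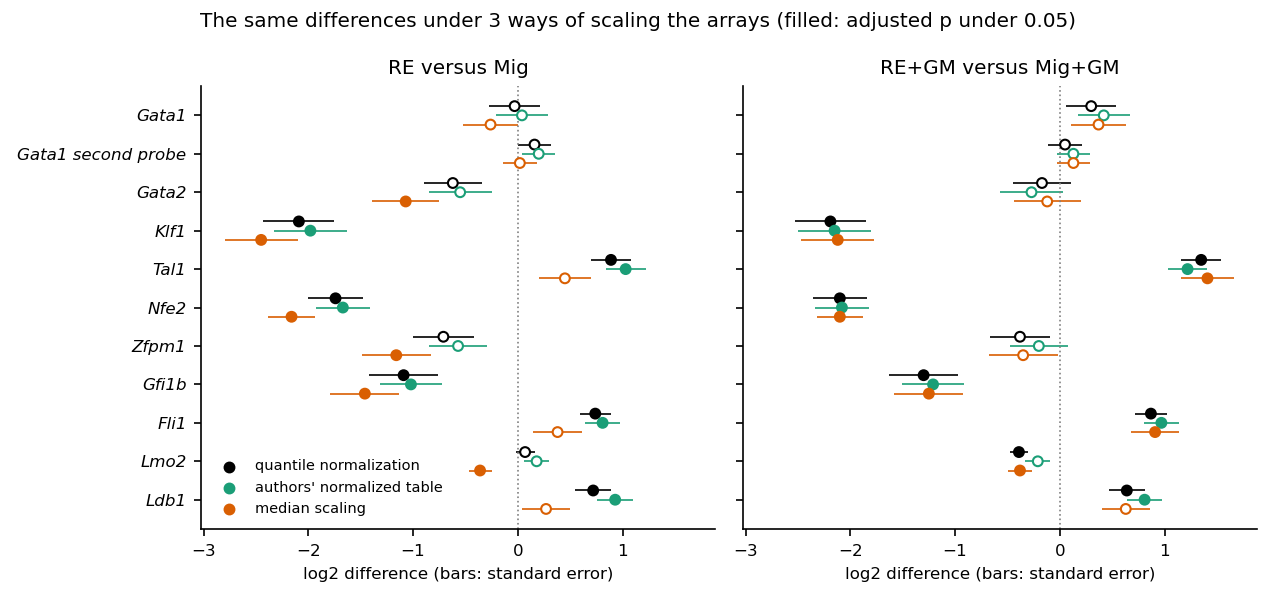
Log2 difference of each probe under quantile normalization (black), in the authors' normalized table (green) and under median scaling (orange), with standard errors; filled points have an adjusted p under 0.05. Without GM-CSF median scaling shifts the points to the left, so that Tal1, Fli1 and Ldb1 lose their call at 0.45, 0.38 and 0.27, and with GM-CSF the 3 ways lie close together.

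GM-CSF in vector cells gave no call for any factor. In Mig+GM against Mig cells 0 of the 11 probes were called by limma, as were 0% of all tested probes. The unadjusted limma p was under 0.05 for 3 of the 11, and for 795 (4.89%) of all tested probes. All 11 differences were below 0, from -0.82 for Klf1 to -0.08 for Ldb1, with a median of -0.46 beside -0.01 over all tested probes. Without Mig+GM replicate 1 the differences were smaller for 9 of the 11 probes: Klf1 was -0.40 in place of -0.82, Gfi1b -0.04 in place of -0.46 and Zfpm1 -0.21 in place of -0.62, and Ldb1 changed sign to 0.02. Arrays did not overlap for 3 of the 11 (Gata1, Klf1 and Lmo2), where 9.23% of all tested probes did not overlap.

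In RUNX1-ETO cells GM-CSF went with lower Lmo2. Lmo2 was lower in all 3 RE+GM arrays (11.41, 11.22 and 11.25) than in all 3 RE arrays (11.99, 11.90 and 11.74), a 1.49-fold difference (log2 -0.58, SE 0.09, limma adjusted p = 0.00758). This was 1 of the 11 probes, or 9.09%, where 1.89% of all tested probes were called (307 probes, and 755 with the replicate number as a block). The call was lost under median scaling (log2 -0.29, adjusted p = 0.284) and in the authors' normalized table (log2 -0.49, adjusted p = 0.063). Klf1 differed by -0.92 (adjusted p = 0.201), Gfi1b by -0.66 (adjusted p = 0.329) and Nfe2 by -0.53 (adjusted p = 0.327), and none was called. Arrays did not overlap for 4 of the 11, the second Gata1 probe, Klf1, Gfi1b and Lmo2, where 22.1% of all tested probes did not overlap. Without RE replicate 3, Nfe2 was called as well (log2 -0.85, adjusted p = 0.033). Tal1 and Fli1 differed by -0.05 and 0.01, with 95% intervals from -0.46 to 0.37 and from -0.31 to 0.33.

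Whether the RUNX1-ETO effect differed with GM-CSF was tested by the interaction. None of the 11 probes was called by limma, where 0.166% of all tested probes were, and 1 of the 11 (9.09%) had an unadjusted p under 0.05, where 8.66% of all tested probes had one. That was Lmo2, whose RUNX1-ETO effect was lower by 0.46 with GM-CSF than without (log2 -0.46, SE 0.13, adjusted p = 0.241). Under median scaling it was -0.02, with the median of all tested probes at 0.15, where quantile normalization had that median at -0.01.

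The order of the 4 groups by mean level is given as a description, since factors were named lower or higher from these same groups. For Klf1, Nfe2, Zfpm1 and Gfi1b the mean was highest in Mig, followed by Mig+GM, RE and RE+GM. Neighbouring groups did not overlap between Mig and Mig+GM and between RE and RE+GM for Klf1, between Mig+GM and RE for Nfe2, and between RE and RE+GM for Gfi1b. For Zfpm1 every neighbouring pair overlapped. For Tal1 and Ldb1 the order was RE, RE+GM, Mig and Mig+GM, and the gap without overlap lay between RE+GM and Mig. Fli1 had the same gap between the RUNX1-ETO and the vector groups, with RE+GM and RE level at 9.03 and 9.02. Lmo2 was highest in RE, followed by Mig, Mig+GM and RE+GM, with overlap between RE and Mig arrays. For the Gata1 probes and Gata2 every neighbouring pair of groups overlapped.

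Partner proteins and cofactors of these factors moved in both directions. The lists of other genes here and below were chosen with earlier results of these data known. Each list count is to be read beside the shares over all tested probes. These were 16.1% higher and 20.0% lower in RE against Mig cells, and 18.3% and 22.6% under GM-CSF. Of 29 partners tested, 9 were higher, 5 lower and 15 not called in RE against Mig cells, with a median of 0.06 beside -0.05 over all tested probes. Gfi1, the paralogue of Gfi1b that acts in granulocytes and lymphocytes, was 8.36-fold higher (log2 3.06, SE 0.27, limma adjusted p = 8.16e-06), while Gfi1b was lower. Lyl1, a relative of Tal1, was 2.48-fold higher (log2 1.31, adjusted p = 1.19e-05), Klf3, a repressor that KLF1 activates, 2.29-fold (log2 1.20, adjusted p = 0.000397) and Kdm1a, the histone demethylase recruited by GFI1 and GFI1B, 2.10-fold (log2 1.07, adjusted p = 0.000193). Cbfa2t3, an ETO family corepressor of the TAL1 complex, was 2.49-fold lower (log2 -1.32, adjusted p = 0.000736), with a second probe lower (log2 -0.89, adjusted p = 3.99e-05) and the other not called (log2 -0.10, adjusted p = 0.393). Cbfb, the partner of RUNX proteins, was 1.66-fold lower (log2 -0.73, adjusted p = 0.000134), with another probe lower (log2 -0.55, adjusted p = 0.00166) and the other not called (log2 -0.34, adjusted p = 0.251). Under GM-CSF 10 partners were higher, 5 lower and 14 not called, and Gfi1 was 5.54-fold higher (log2 2.47, adjusted p = 2.53e-05). Under median scaling the count without GM-CSF was 4 higher and 6 lower, with a median of -0.13. When 1 array was left out the median ran from 0.05 without RE replicate 2 to 0.17 without RE replicate 3, and under GM-CSF, where it was 0.17, from -0.01 without Mig+GM replicate 3 to 0.17.

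Among red cell genes that GATA1 and KLF1 are known to act on, more were called lower than higher in both settings. Over all tested probes, too, more were called lower: 20.0% against 16.1% higher, and 22.6% against 18.3% under GM-CSF. Of 39 on the array, 33 were tested: 18 were lower, 5 higher and 10 not called in RE against Mig cells, with a median of -0.49 and 11 lower without Mig replicate 3, and 15 were lower, 5 higher and 13 not called under GM-CSF, with a median of -0.51 that was -0.31 without Mig+GM replicate 3. Tfrc, the transferrin receptor that brings in iron, was 7.89-fold lower without GM-CSF (log2 -2.98, SE 0.17, limma adjusted p = 2.5e-07) and 8.99-fold lower with it (log2 -3.17, adjusted p = 1.4e-07). The cell cycle factor E2f2 was 3.19-fold lower (log2 -1.67, adjusted p = 1.44e-05), Mgst3 3.35-fold (log2 -1.74, adjusted p = 3.22e-05) and Alad, an enzyme of heme synthesis, 3.09-fold (log2 -1.63, adjusted p = 3.84e-05). Hemgn, a red cell nuclear protein gene, was above background on 0 of 3 RE arrays and on all 3 Mig arrays. It was at least 3.15-fold lower (adjusted p = 0.00018 for the full difference). Isg20, an interferon-induced nuclease, went the other way at 10.5-fold higher (log2 3.39, adjusted p = 2.14e-08), as did the globin Hbb-b2 at 2.19-fold (log2 1.13, adjusted p = 0.00056), whose near-identical copies make the probe's target uncertain. The summed signal of the list was 15487 to 20837 on RE arrays and 32675 to 35288 on Mig arrays, and 13852 to 18520 on RE+GM arrays and 18822 to 29248 on Mig+GM arrays. Slc4a1, the anion exchanger of mature red cells, was above background on 1 of 3 RE arrays and 0 of 3 Mig arrays, and Alas2, the first enzyme of heme synthesis in red cells, on 2 and 0. With GM-CSF Slc4a1 was above background on 3 of 3 RE+GM arrays and 0 of 3 Mig+GM arrays, and Alas2 on 1 and 0. The part of red cells in the lower Klf1, Nfe2 and Gfi1b signals was not tested.

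Megakaryocyte and platelet genes were divided. Of 23 tested among 24 on the array, 9 were lower, 4 higher and 10 not called in RE against Mig cells (median -0.39), and 7 were lower, 8 higher and 8 not called under GM-CSF (median -0.03). The number lower without GM-CSF was 4 without RE replicate 2, and 5 without Mig replicate 1 or Mig replicate 2, and the number lower with GM-CSF was 4 without Mig+GM replicate 2 or RE+GM replicate 1 and under median scaling. The median without GM-CSF ran from -0.62 without Mig replicate 3 to -0.19 without RE replicate 2. Cd9, a surface protein of platelets and other cells, was 3.91-fold lower (log2 -1.97, SE 0.24, limma adjusted p = 6.61e-05), and Gp9, a subunit of the von Willebrand factor receptor, 2.37-fold lower (log2 -1.24, adjusted p = 0.000666). Tbxas1, thromboxane synthase, was 1.72-fold lower (log2 -0.78, adjusted p = 0.000739) and Rgs18 1.59-fold lower (log2 -0.67, adjusted p = 0.00519). Treml1, a receptor of platelet granules, was 5.46-fold higher (log2 2.45, adjusted p = 3.66e-05) and Mylk, a myosin kinase, 2.97-fold higher (log2 1.57, adjusted p = 2.93e-06). With GM-CSF in RUNX1-ETO cells, Ppbp, a chemokine of platelet granules, was higher by 4.31 (adjusted p = 0.00102) and Thbs1, thrombospondin, by 1.01 (adjusted p = 0.00245). These were 2 of the 23, where 1.89% of all tested probes were called. Thbs1 was dim, above background on 2 of 3 RE arrays. In the interaction 1 of the 23 was called, where 0.166% of all tested probes were. The summed signal of the list was 7377 to 11410 on RE arrays and 9343 to 12560 on Mig arrays, and 11927 to 17763 on RE+GM arrays and 6415 to 9341 on Mig+GM arrays. Bright genes weigh most in such a sum: in RE+GM against RE cells the list median was -0.09. The part of these cells in the levels of Fli1, Nfe2 and Gfi1b was not tested.

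**Figure D4:**
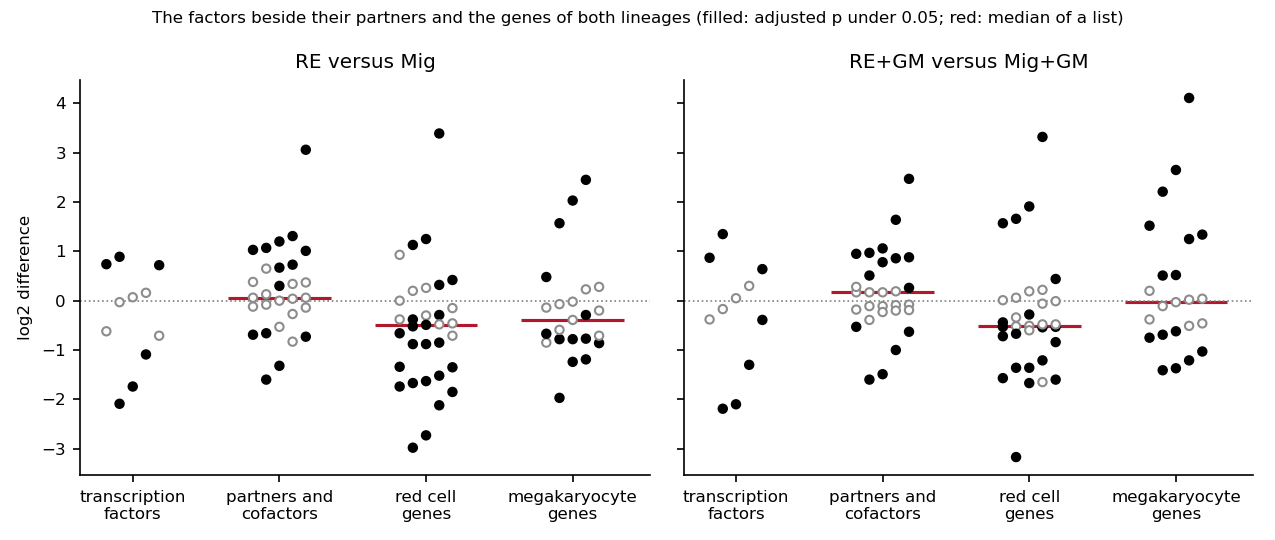
Log2 differences of the 11 factor probes and of the tested genes of 3 lists, RE versus Mig at left and RE+GM versus Mig+GM at right; filled points have an adjusted p under 0.05 and red lines are list medians. The red cell list has medians of -0.49 and -0.51, and the partners of the factors have medians of 0.06, which is -0.13 under median scaling, and 0.17.

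Mast cells and basophils also use GATA factors, and their genes were divided. Of 17 mast cell and basophil genes tested, 8 were higher, 3 lower and 6 not called in RE against Mig cells (median 0.51), and 9 were higher, 3 lower and 5 not called under GM-CSF (median 0.56). The number lower in RE cells was 5 without Mig replicate 3, under median scaling, with array weights and with the replicate number as a block, and the median was 0.26 without Mig replicate 2 or RE replicate 1. Cpa3, the mast cell carboxypeptidase, was 4.07-fold higher (log2 2.02, SE 0.18, limma adjusted p = 8.55e-06), Cd200r3 2.72-fold (log2 1.45, adjusted p = 0.000288) and Hdc, which makes histamine, 2.64-fold (log2 1.40, adjusted p = 0.000374). The tryptase Tpsb2 was not above background on any Mig array and was at least 1.66-fold higher (adjusted p = 0.000443 for the full difference). Fcer1g, the signalling chain of Fc receptors, was 8.54-fold lower (log2 -3.09, adjusted p = 0.000383) and Prss34, a basophil protease, 8.29-fold lower (log2 -3.05, adjusted p = 0.000329). The summed signal was 53036 to 65905 on RE arrays and 33693 to 43847 on Mig arrays, and 51585 to 60534 on RE+GM arrays and 20480 to 29019 on Mig+GM arrays. The part of mast cells or basophils in the Tal1 signal was not tested.

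Factors listed for granulocyte and macrophage fate were also divided. Of 10 tested, 4 were higher, 3 lower and 3 not called in RE against Mig cells (median 0.16). Under GM-CSF these counts were 3, 3 and 4 (median -0.18). When 1 array was left out the medians changed sign, to -0.02 without Mig replicate 2 and, under GM-CSF, to 0.01 without Mig+GM replicate 1, and 2 were higher in RE cells without Mig replicate 3 or RE replicate 2. Cebpa, the leading factor of granulocyte formation, was 1.88-fold lower in RE cells (log2 -0.91, SE 0.12, limma adjusted p = 0.000122), where 2 of 3 arrays were above background, and 1.76-fold lower in RE+GM cells (log2 -0.81, adjusted p = 0.000186). Nfil3 was 2.76-fold higher in RE cells (log2 1.47, adjusted p = 0.000288) and Jun 2.84-fold (log2 1.51, adjusted p = 0.00111). Elf1, an ETS factor like Fli1, was 1.46-fold higher (log2 0.54, adjusted p = 0.014), a call lost without Mig replicate 3 (adjusted p = 0.0618), without RE replicate 2 (0.0588) and under median scaling (0.634). Irf8, a factor of monocytes, was 2.01-fold higher (log2 1.01, adjusted p = 0.0203), a call lost without Mig replicate 2 (adjusted p = 0.0873), Mig replicate 3 (0.0741), RE replicate 1 (0.0657) or RE replicate 2 (0.0515), or under median scaling (0.0928). Ets1, also an ETS factor, was 2.10-fold lower (log2 -1.07, adjusted p = 0.00265), with a second probe not called (log2 0.03, adjusted p = 0.764), and differed by 0.10 under GM-CSF (adjusted p = 0.768).

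Genes of other blood cells were counted as well, in RE against Mig cells first and RE+GM against Mig+GM cells second. Over all tested probes 36.0% and 40.9% were called in these comparisons. Of 15 neutrophil genes 2 were higher and 2 lower, then 2 and 4, with medians of -0.70 and -1.06, and with the replicate number as a block the 4 became 7. The first median was -0.15 without Mig replicate 1 and -0.13 without RE replicate 3, and the second -0.24 without Mig+GM replicate 1. Under GM-CSF 0 were higher without Mig+GM replicate 2, Mig+GM replicate 3, RE+GM replicate 1 or RE+GM replicate 2. Without GM-CSF the call of the elastase gene Elane (log2 -1.93, limma adjusted p = 0.0202) was lost without Mig replicate 1 (adjusted p = 0.0817), Mig replicate 3 (0.0783) or RE replicate 3 (0.0524), and Mmp8 (log2 0.43, adjusted p = 0.0493) lost its call without any of 10 arrays. Lcn2, a granule protein gene, was 9.37-fold higher (log2 3.23, adjusted p = 0.00271) and Ms4a3 3.78-fold lower (log2 -1.92, adjusted p = 0.00673). The summed neutrophil signal was 18371 to 42221 on RE arrays and 32990 to 82778 on Mig arrays, and 14233 to 29704 on RE+GM arrays and 38367 to 106038 on Mig+GM arrays. Of 11 monocyte and macrophage genes 5 were higher and 1 lower, then 3 and 1, with medians of 1.54 and 1.16, and the 5 became 8 without Mig replicate 1 and 3 without Mig replicate 2 or Mig replicate 3. The first median was 2.32 without Mig replicate 1 and 1.02 without Mig replicate 3, and the second 1.75 without Mig+GM replicate 1 and 0.68 without Mig+GM replicate 3. Among them the Fc receptor gene Fcgr3 was 4.26-fold higher (log2 2.09, adjusted p = 0.000419), and Cd14, an endotoxin co-receptor, 3.09-fold (log2 1.63, adjusted p = 0.00443), with a difference of 0.06 under GM-CSF (adjusted p = 0.915). Adgre1, a macrophage receptor, was 4.51-fold higher (log2 2.17, adjusted p = 0.000415), with another probe not called (log2 0.79, adjusted p = 0.132). Ctss, a lysosomal protease, was 3.98-fold higher (log2 1.99, adjusted p = 0.014), a call lost without Mig replicate 2 (adjusted p = 0.0627), without Mig replicate 3 (0.0611) and under median scaling (0.0612). Cx3cr1, the fractalkine receptor, was 2.14-fold lower in RE cells (log2 -1.10, adjusted p = 0.00168) and 2.12-fold lower in RE+GM cells (log2 -1.09, adjusted p = 0.0014). The summed monocyte signal was 23118 to 29079 on RE arrays and 3784 to 22417 on Mig arrays, and 16999 to 23349 on RE+GM arrays and 4222 to 13645 on Mig+GM arrays. The part of these cells in the members' signals was not tested.

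Of 9 lymphoid genes 3 were higher and 1 lower, then 3 and 2, with medians of 0.07 and -0.06, which ran from 0.02 to 0.07 and from -0.13 to 0.05 when 1 array was left out. Cd79b of B cells was 3.94-fold higher (log2 1.98, limma adjusted p = 2.92e-06). Dntt, the enzyme that adds bases to antigen receptor genes, was above background on no Mig array. It was at least 1.83-fold higher (adjusted p = 0.00607 for the full difference). Il7r was 2.09-fold higher (log2 1.06, adjusted p = 0.0146), a call lost without Mig replicate 2 (adjusted p = 0.0524), without Mig replicate 3 (0.0579) and with array weights (0.0938). Nkg7, a granule protein gene of killer cells, was 2.88-fold lower in RE cells (log2 -1.53, adjusted p = 0.00257) and 3.62-fold lower in RE+GM cells (log2 -1.86, adjusted p = 0.000534). Of 7 progenitor genes 3 were higher and 0 lower in both, with medians of 0.13 and 0.19, which ran from 0.07 to 0.21 and from 0.11 to 0.23 when 1 array was left out. Cd34, a surface marker of progenitors, was 3.91-fold higher (log2 1.97, SE 0.11, adjusted p = 2.73e-07). Slamf1, a receptor of stem cells, was above background on no Mig array and at least 3.41-fold higher (adjusted p = 3.48e-05 for the full difference). Cd48 was 1.72-fold higher (log2 0.78, adjusted p = 0.00641), but not called under median scaling (log2 0.44, adjusted p = 0.0959). No probe of the annotation carried the symbol Kit, the gene of the receptor used in the sort.

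The genes whose signal was most like that of a factor over the 12 arrays are given as a description, since group differences and shared arrays enter each correlation. Klf1 was most like Bcl11a, a repressor of fetal globin that KLF1 activates, with a Pearson correlation of 0.995, and this was 0.987 after group means were removed. Next came Acss1 and Tpd52l2 at 0.989 and 0.988. Bcl11a was itself 3.04-fold lower in RE cells (log2 -1.60, limma adjusted p = 0.000757). Nfe2 was most like Cmtm7, Eed and Nfs1 (0.992, 0.991 and 0.990), and Gfi1b like Khk, Art4 and Dcaf4 (0.985, 0.982 and 0.982). After group means were removed, Gfi1b was most like Tspan33, the globin Hbb-bt and Emc9 (0.978, 0.972 and 0.970). Klf1 was next like the red cell adhesion gene Icam4 (0.980), then like Smim8 (0.969). Over the 12 arrays, Tal1 was most like Plscr1, Cpa3 and Trim21 (0.979, 0.970 and 0.968), Fli1 like Osbpl9 (0.971) and Ldb1 like Zbtb17 (0.977). Gata2 was most like Slc18a2, a transporter that loads histamine into mast cell granules (0.956). Zfpm1 was most like Nrarp (0.935), Lmo2 like Unk (0.940) and Gata1 like Tmem64 (0.942). After group means were removed, the nearest genes of the other probes were Ddost for Nfe2 (0.979), Mbd4 for Tal1 (0.959) and Vmac for Zfpm1 (0.956). They were Slco3a1 for Fli1 (0.961), Pdcd4 for Lmo2 (0.957), Car9 for Ldb1 (0.966) and Ddit4l for Gata2 (0.961). For the Gata1 probes they were Rem2 (0.950) and, for the second probe, Ogt (0.992).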

How the data were processed

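Total RNA from sorted cells was hybridized to 12 arrays in 4 groups of 3, and groups and replicate numbers came from the sample titles and descriptions. The main table holds linear bead signal intensity as deposited, before normalization and without detection p-values; a second deposited table holds intensity normalized by the authors by a method not given in the sources used here, and served as an alternative. Its scale is linear, from the values, and its array medians ran from 78.4 to 80.7.

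Signals were corrected with normexp (offset 50), then quantile-normalized; values are log2 throughout, from limma 3.58.1 under R 4.3.3. The offset makes fold changes smaller. Each array's background was estimated from the mode of its signals and the spread below it, and probes that exceeded it on 3 or more arrays (p under 0.05) were tested. Of 25697 probes 23978 had 1 gene symbol in the platform annotation, 0 had several and 1719 none; 23962 gene identifiers matched the RefSeq table. lmFit and eBayes fitted one mean per group over the 12 arrays, two-sided, with Benjamini-Hochberg adjustment over 16255 probes per comparison. The code was tested on simulated data. A list gene was read at its brightest tested probe. A fold given as "at least" sets the array background in place of the dim group. The adjusted p beside such a fold belongs to the full limma difference, and the fold makes no allowance for sampling error.

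Genes were named by rule: all members, and from each list the 4 called genes of smallest p in the list's main direction and 2 in the other in RE versus Mig, plus the 3 genes most correlated with each member, of which the text gives 1 to 3. Hemgn, Slc4a1, Alas2, Ppbp, Thbs1, Runx1t1 and Kit were named outside it, after values were seen. The members and lists were chosen with earlier results of these data known. Alternatives were other scalings, background corrections, filters, one unit per gene, array weights, the replicate number as a block, and each array left out in turn. No 2 arrays held identical values, and 0 columns were left unused.

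Whether replicate numbers pair arrays was checked from deviations from group means: same-numbered arrays correlated by 0.31, 0.24 and 0.41 between RE+GM and Mig+GM, 0.61, 0.63 and 0.72 between Mig+GM and Mig, 0.11, 0.30 and 0.31 between RE+GM and RE, and 0.21, 0.07 and 0.52 between RE and Mig. Arrays of different numbers correlated by means of -0.16, -0.33, -0.12 and -0.13, in the same order of comparisons. Deviations from a group mean cancel out within the group. These means are therefore largely fixed by the same-numbered values and are no separate baseline. The main fit did not use the replicate number. The labels do not say what a number marks.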

Additional observations from a re-analysis of the deposited data

How the results depend on the processing

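Each member probe was recomputed in 5 comparisons under the alternatives, which gave 1094 values with the same direction and side of the threshold, 11 that lost and 9 that gained a call, and 36 with a changed sign. Klf1 and Nfe2 were lower under all alternatives in RE versus Mig (log2 -2.45 to -1.95 and -2.16 to -1.42) and in RE+GM versus Mig+GM (-2.61 to -1.96 and -2.23 to -1.92), with adjusted p up to 0.0035. Lmo2 alone was called lower with a changed sign, at -0.36 in RE versus Mig under median scaling. The number of members called in RE+GM versus RE was 0 under median scaling and in the authors' table, and 1 to 2 when 1 array was left out.

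Signs changed without a call as follows. Gata1 in RE versus Mig was 0.04 in the authors' table. In RE+GM versus RE under median scaling Gata2 was 0.04, Tal1 0.23, Zfpm1 0.02 and Ldb1 0.13, and with array weights Gata1 was 0.08 and Tal1 0.03. In the interaction under median scaling the second Gata1 probe was 0.11, Klf1 0.33, Nfe2 0.06, Gfi1b 0.21 and Ldb1 0.36, and Klf1 was 0.02 with array weights. Leaving out 1 array also turned uncalled signs. In RE versus Mig Gata1 ran from -0.14 to 0.21, and in RE+GM versus Mig+GM the second Gata1 probe ran from -0.13 to 0.16, Gata2 from -0.46 to 0.12, Cd14 from -0.14 to 0.30 and Ets1 from -0.03 to 0.23. Ldb1 in Mig+GM versus Mig ran from -0.19 to 0.02, and in RE+GM versus RE Tal1 ran from -0.12 to 0.02 and Fli1 from -0.07 to 0.15. In the interaction Klf1 ran from -0.52 to 0.13, Zfpm1 from -0.09 to 0.63, Gfi1b from -0.62 to 0.12 and Ldb1 from -0.29 to 0.04. The cause of these changes was not tested.

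The replicate block, fitted over all 12 arrays, changed no member's call in RE+GM versus Mig+GM, Mig+GM versus Mig or RE+GM versus RE. In RE versus Mig, Zfpm1 gained a call under the block (log2 -0.71, limma adjusted p = 0.023). There same-numbered arrays correlated by 0.21, 0.07 and 0.52 in their deviations from group means. Over all tested probes the block gave 755 calls in RE+GM versus RE, where 307 were called without it, and 61 in the interaction, where 27 were called without it. The first count was 142 among probes above background on all 12 arrays, 1749 with array weights and 106 to 1195 when 1 array was left out, and the second was 6, 144 and 8 to 227, besides 16 under median scaling and 16 with a normexp offset of 16. The share of the calls in RE+GM versus RE that were higher was 86.3%, but 98.6% under median scaling, 70.4% in the authors' table, 64% under the block and 52.8% with array weights. Among probes above background on all 12 arrays, 11 of 20 red cell genes were lower in RE versus Mig, where 18 of 33 were lower with the wider filter. The 3 arrays in each group limit the precision of all values, and both Gata1 probes lay close to background.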
